A study of Mus musculus with 12 samples.

Results

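The STAT factors and the SOCS genes that restrain them were followed through 12 RNA-seq libraries of mouse pancreatic tumours. The 9 genes described are Stat2, Stat3, Stat4, Stat5a, Stat5b, Stat6, Socs1, Socs2 and Socs3, taken by symbol from a count table of 43432 genes. All 9 had enough counts to be among the 15449 genes tested. The tumours came from CR705 cells, a pancreatic cancer line of the mouse. In 6 libraries the cells carried the genotype label AHRKO, a knockout of the aryl hydrocarbon receptor, and in 6 they were labelled WT. No library is labelled with a compound. The labels' RNA protocol names tumours, whereas their growth and treatment protocols describe cultured cells. The sources used here do not give the strain, sex or age of the hosts, the site of the tumours or the number of knockout clones. The labels do not tie replicates to separate animals, and a p therefore measures only how these libraries vary.

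STAT proteins are transcription factors that wait in the cytoplasm. A cytokine or interferon binding its receptor activates Janus kinases (JAKs), which phosphorylate STATs, and these pair, enter the nucleus and switch on target genes. Among those targets are SOCS genes, whose proteins block the receptor or the kinase and so close a feedback loop. Each STAT has favoured inputs: STAT2 serves type I interferon, STAT3 the IL-6 family that signals through gp130, STAT4 IL-12, STAT5A and STAT5B the IL-2 family and growth hormone, and STAT6 IL-4 and IL-13.

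Libraries held from 14772343 to 19944273 counts in AHRKO and from 19293174 to 35881469 in WT. Levels are given as CPM, read counts scaled to a common library total with TMM factors, and a gene was called at an adjusted p under 0.05. Ahr, the targeted gene, was at 62.5, 94.0, 143, 75.2, 124 and 114 CPM in AHRKO replicates 1 to 6, against 114, 125, 113, 106, 110 and 101 CPM in WT replicates 1 to 6. The groups overlapped, and its log2 fold change (AHRKO over WT) of -0.13 ± 0.17 (SE) was not called (edgeR's quasi-likelihood test, adjusted p = 0.606). The deleted part of the gene is not known here and a knockout can leave its transcript in place, so these counts do not check the genotype. The epithelial tumour markers were detected: their summed level was 699 (replicate 1) to 4770 CPM in AHRKO and 3480 to 4940 CPM in WT, and none of the 10 was at 0 in all libraries. Of 8 pancreatic acinar markers, 1 was tested, and Cela2a, Amy2b and Ptf1a had no count in any library.

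AHRKO replicate 1 stood apart. Its leukocyte score, the mean log2 CPM of 14 genes shared by white blood cells, was 7.59. The other 5 AHRKO libraries ran from 4.91 to 6.08 and WT from 4.01 to 4.98. Its epithelial score was 4.13, below the 6.01 to 6.98 of the other 5 and the 6.04 to 7.75 of WT. AHRKO replicate 5 had the lowest leukocyte score of its group, within the range of WT. The leukocyte score averaged 5.98 ± 0.88 in AHRKO and 4.50 ± 0.40 in WT (SD, n = 6 each), a difference of 1.47 (exact permutation test, two-sided, p = 0.00649, smallest possible p 0.00216; adjusted p = 0.0162 over 10 marker lists), with 5 of 6 AHRKO libraries above all WT libraries. All 14 leukocyte markers were called higher in AHRKO (adjusted p under 0.05), against 15.9% of all tested genes. Their summed level was 593 to 3540 CPM in AHRKO (at most 1280 CPM without replicate 1) and 344 to 636 CPM in WT. In bulk RNA, more cells of a type and more RNA per cell cannot be told apart, and the part of leukocyte content in the results on single genes was not tested beyond the fits with the score as a covariate.

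Of the 9 genes, 3 rose in AHRKO tumours, Socs1, Stat4 and Stat2, and none fell by edgeR's quasi-likelihood test (1 more, Stat5b, had an unadjusted p under 0.05, on the higher side). Among all tested genes 29.5% were called, 15.9% higher and 13.6% lower. The 9 genes are few and were chosen with earlier results of these data known, so 3 calls are not read against these shares. The median log2 fold change of the 9 was 0.22, against 0.023 for all tested genes. For no member did all AHRKO libraries lie outside the range of WT, which 6.03% of tested genes did above and 7.35% below.

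**Figure D1:**
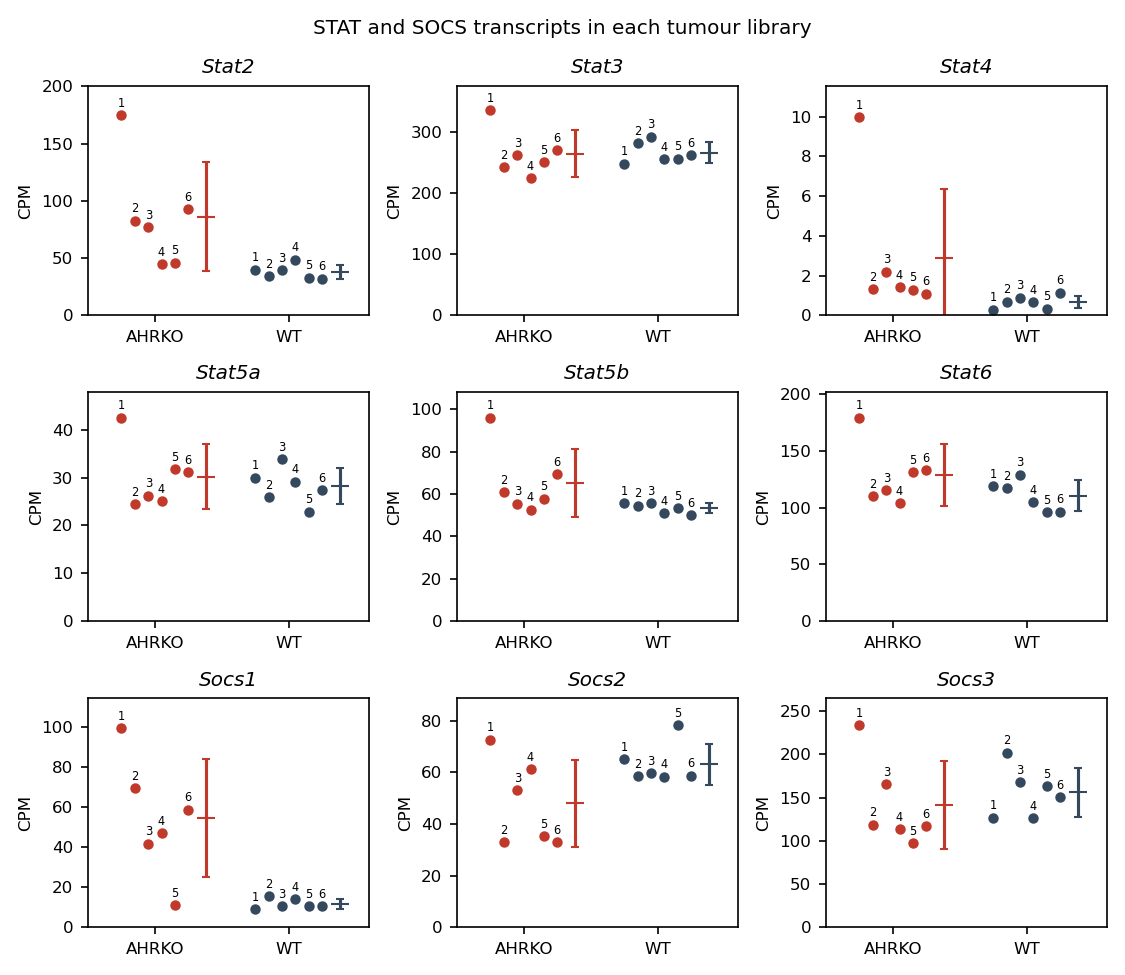
Level of each STAT and SOCS gene in CPM (vertical axes, each from 0) in 6 AHRKO and 6 WT tumour libraries. Points are libraries numbered by replicate, and the bars beside them are mean and SD (for Stat4 the lower end of the AHRKO bar lies below 0 and is not drawn). AHRKO replicate 1 is the highest AHRKO library for all 9 genes, and Socs1 in AHRKO replicate 5, at 11.1 CPM, lies within WT.

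Socs1 encodes an inhibitor that binds JAKs directly and restrains interferon signalling above all. It lies at chr16:10782240-10785536 (mm10, minus strand). AHRKO replicates 1 to 6 had 99.7, 69.5, 41.9, 47.1, 11.1 and 58.8 CPM of Socs1, against 9.16, 15.6, 10.6, 14.1, 10.5 and 10.5 CPM in WT. In 5 AHRKO libraries Socs1 was above every WT library, and replicate 5, whose leukocyte score was also within WT, was level with WT. The means were 54.7 ± 29.6 CPM in AHRKO and 11.7 ± 2.51 CPM in WT (SD, n = 6 each), a 4.66-fold rise with a log2 fold change of 2.22 ± 0.38 (SE; edgeR's quasi-likelihood test, adjusted p = 0.00175). It was called whichever library was left out, with values from 1.96 to 2.43. With the leukocyte score as a covariate, the log2 fold change was 0.90 and was not called (edgeR, adjusted p = 0.146). Of the 6 nearest tested neighbours of Socs1, 4 were called higher and none lower. Those 4, named after their values were seen, were Ciita, the master regulator of MHC class II, Dexi, Rmi2, a component of a DNA repair complex, and Litaf. Of 6 neighbours each, Stat2 had 2 higher and 1 lower, and Stat4 and Socs2 had 2 higher and 0 lower. Every other member had at most 1 called neighbour. On chromosome 16 as a whole 37.9% of 475 tested genes were called higher in AHRKO, with a median log2 fold change of 0.33.

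The 250 bases before the annotated start of Socs1 (chr16:10785537-10785786, minus strand, RefSeq on GRCm38.p6, the assembly behind mm10) are shown because they hold a motif that was searched for. Capitals mark GAAA, any 2 bases and GAAA, the core of the element bound by the interferon complex that contains STAT2 and by interferon regulatory factors. It was searched on both strands and here matches at 2 overlapping places, bases 83 to 74 and 77 to 68 before the start.
Socs1 promoter: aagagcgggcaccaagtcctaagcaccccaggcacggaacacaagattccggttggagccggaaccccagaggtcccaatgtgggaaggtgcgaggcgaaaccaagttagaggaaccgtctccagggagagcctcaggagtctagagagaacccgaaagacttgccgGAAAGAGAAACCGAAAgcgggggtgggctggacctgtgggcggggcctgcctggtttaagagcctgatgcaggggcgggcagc

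Stat2 encodes the STAT that joins IRF9 in the complex that switches on type I interferon genes, and it is itself an interferon-induced gene. It lies at chr10:128270559-128292849 (mm10, plus strand). AHRKO replicates 1 to 6 had 175, 82.7, 77.2, 44.6, 46.2 and 92.7 CPM, against 40.0, 34.2, 39.4, 48.7, 32.9 and 32.0 CPM in WT. In AHRKO, 4 libraries were above every WT library, while replicates 4 and 5 lay just under WT replicate 4. Stat2 averaged 86.5 ± 47.8 CPM in AHRKO and 37.9 ± 6.27 CPM in WT (SD, n = 6 each), 2.28-fold higher (log2 fold change 1.19 ± 0.29 SE; edgeR's quasi-likelihood test, adjusted p = 0.00992). Without AHRKO replicate 1 the log2 fold change was 0.86 (edgeR, adjusted p = 0.00548), and with the leukocyte score as a covariate it was 0.29 and not called (edgeR, adjusted p = 0.547). The window before its start (chr10:128270248-128270497, plus strand, RefSeq, GRCm38.p6) holds the same interferon motif, read on the opposite strand, at bases 222 to 213. Next to it, at bases 210 to 201, stands TTC, any 4 bases and GAA, the spacing that STAT6 prefers, and capitals mark both.
Stat2 promoter: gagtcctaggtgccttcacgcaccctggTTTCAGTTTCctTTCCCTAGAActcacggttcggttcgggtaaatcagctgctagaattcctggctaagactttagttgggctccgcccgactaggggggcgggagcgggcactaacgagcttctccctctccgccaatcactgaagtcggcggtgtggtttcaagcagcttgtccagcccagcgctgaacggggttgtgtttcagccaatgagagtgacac

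Stat4, the STAT of IL-12 signalling, is known mainly from T cells and NK cells, where it drives the type 1 helper programme. It lies at chr1:51987148-52107189 (mm10, plus strand). It was the rarest of the 9, with 19 to 168 counts per library in AHRKO and 7 to 24 counts in WT. AHRKO replicates 1 to 6 had 9.97, 1.31, 2.20, 1.42, 1.29 and 1.1 CPM, against 0.294, 0.685, 0.886, 0.665, 0.347 and 1.14 CPM in WT. AHRKO replicate 1 was far above the other 5, of which only replicate 6 did not exceed every WT library. The means were 2.88 ± 3.49 CPM in AHRKO and 0.670 ± 0.321 CPM in WT (SD, n = 6 each), with a log2 fold change of 2.09 ± 0.61 (SE; edgeR's quasi-likelihood test, adjusted p = 0.0218). Without AHRKO replicate 1 it was 1.11 (edgeR, adjusted p = 0.0229), and without WT replicate 5 it was 1.96 and just missed the threshold (edgeR, adjusted p = 0.0503). T cell and NK cell markers were mostly higher in AHRKO too, and whether they followed Stat4 library by library was not tested. All 14 T cell markers were called higher in AHRKO, against 15.9% of all tested genes. Their summed level was 28 to 353 CPM in AHRKO (at most 77.5 CPM without replicate 1) and 7.56 to 30.0 CPM in WT. Of 6 NK cell markers 5 were called higher, with a summed level of 5.21 to 90.1 CPM in AHRKO (at most 17.4 CPM without replicate 1) and 3.53 to 8.14 CPM in WT, and no T cell or NK cell marker was at 0 in all libraries. Some markers were near the floor in WT, with medians of 0.0942 CPM for Cd8a, 0.192 CPM for Cd8b1 and 0.113 CPM for Ncr1. Such markers passed the count filter mainly through AHRKO, so these counts of calls are not read as a result. With the leukocyte score as a covariate the log2 fold change of Stat4 was 0.02 (edgeR, adjusted p = 0.982).

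Stat4 has 2 annotated starts in RefSeq. The window before the first held none of the motifs searched. The window before the second, which lies in an intron of the longer transcript (chr1:52007990-52008239, plus strand, GRCm38.p6), holds the interferon motif at bases 97 to 88, in capitals.
Stat4 second promoter: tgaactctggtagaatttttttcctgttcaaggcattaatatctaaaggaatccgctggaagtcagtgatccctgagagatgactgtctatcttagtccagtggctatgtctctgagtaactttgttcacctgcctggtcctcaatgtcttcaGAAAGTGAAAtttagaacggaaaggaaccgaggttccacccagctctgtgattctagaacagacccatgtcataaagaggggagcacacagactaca

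Windows of 250 bases were at hand for 8 of the 9 genes. The interferon motif occurred in those of Stat2, Stat4 and Socs1 and in none of those of Stat3, Stat5a, Stat5b, Stat6 and Socs3. Among 27025 genes with a promoter window, 3.46% held it in at least 1 window. The STAT6 spacing occurred in Stat2 alone of the 8, against 6.76% of all genes. The match is a run of letters, and no binding was measured.

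Stat3 encodes the main STAT of IL-6 family cytokines and was among the most abundant of the 9. AHRKO replicates 1 to 6 had 335, 242, 262, 224, 250 and 270.2 CPM, against 248, 281, 292, 255, 256 and 262 CPM in WT, so the groups lay over each other. Its means were 264 ± 38.6 CPM in AHRKO and 266 ± 17.3 CPM in WT (SD, n = 6 each), with a log2 fold change of -0.01 ± 0.10 (SE; edgeR's quasi-likelihood test, adjusted p = 0.954). The range of 2 SE on either side was -0.20 to 0.19, and leaving out 1 library gave values from -0.09 to 0.04. Activity of STAT3 depends on phosphorylation, which was not measured. Stat3 (chr11:100885098-100939540, mm10, minus strand) overlaps the end of Stat5a (chr11:100859351-100885169, plus strand) by 72 bases, and the strandedness of the counting is not given.

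Stat5a and Stat5b encode near-identical factors for IL-2 family cytokines, prolactin and growth hormone. Reads common to both genes may be split or dropped by the counting, so their levels are uncertain. Stat5b had 95.9, 60.8, 55.4, 52.6, 57.8 and 69.4 CPM in AHRKO replicates 1 to 6, against 55.8, 54.5, 55.6, 51.1, 53.4 and 50 CPM in WT. In AHRKO, 4 libraries were above all WT libraries, but its log2 fold change of 0.29 ± 0.13 (SE) was not called (edgeR's quasi-likelihood test, adjusted p = 0.111). Stat5a averaged 30.2 ± 6.77 CPM in AHRKO and 28.2 ± 3.75 CPM in WT (SD, n = 6 each), with a log2 fold change of 0.10 ± 0.14 (SE; edgeR, adjusted p = 0.635) and -0.02 without AHRKO replicate 1. The log2 ratio of Stat5a to Stat5b within a library was -1.11 ± 0.15 in AHRKO and -0.93 ± 0.18 in WT (SD, n = 6 each), lower by 0.18 in AHRKO (exact permutation test, two-sided, p = 0.0996). Without AHRKO replicate 5 the difference was -0.23 (exact permutation p = 0.0390) and without WT replicate 5 it was -0.24 (exact permutation p = 0.0260).

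Stat6, the STAT of IL-4 and IL-13 that shapes type 2 helper cells and alternatively activated macrophages, had 179, 109.8, 115, 104, 131 and 133 CPM in AHRKO replicates 1 to 6. WT replicates 1 to 6 had 119, 117, 129, 105, 95.7 and 96.5 CPM. Replicates 1, 5 and 6 of AHRKO were above all WT libraries and the other 3 were not. The log2 fold change was 0.22 ± 0.13 (SE) and was not called (edgeR's quasi-likelihood test, adjusted p = 0.225).

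Socs3 encodes the inhibitor that binds gp130 and related receptors, and it is a classic target of STAT3. It had 234, 119, 166, 114, 97.4 and 117 CPM in AHRKO replicates 1 to 6, against 127, 202, 168, 126, 163 and 151 CPM in WT. Replicates 2, 4, 5 and 6 of AHRKO were below every WT library, replicate 1 was the highest of all 12 and replicate 3 lay within WT. The log2 fold change was -0.14 ± 0.20 (SE; edgeR's quasi-likelihood test, adjusted p = 0.623). Adding the leukocyte score as a covariate gave -0.84, which was called (edgeR, adjusted p = 0.00626). The window of Socs3 was the only one of the 8 with TTCNNNGAA, the classic STAT site, which stands in the windows of 8.13% of all genes. The 30 bases around it (chr11:117969501-117969530, minus strand, RefSeq start, GRCm38.p6) are shown with the match in capitals.
Socs3 site: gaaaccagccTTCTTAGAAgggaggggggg

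Socs2 encodes a SOCS protein best known for restraining growth hormone signalling through STAT5. AHRKO replicates 1 to 6 had 72.7, 33.0, 53.1, 61.2, 35.3 and 33.1 CPM, against 65.2, 58.5, 59.6, 58.4, 78.4 and 58.8 CPM in WT. In AHRKO, 4 libraries were below every WT library, and replicates 1 and 4 lay within the WT range. It averaged 48.1 ± 16.9 CPM in AHRKO and 63.1 ± 7.89 CPM in WT (SD, n = 6 each), with a log2 fold change of -0.39 ± 0.20 (SE) that was not called (edgeR's quasi-likelihood test, adjusted p = 0.153). The call depended on 1 library and on the tool. Without AHRKO replicate 1 the log2 fold change was -0.55 and called (edgeR, adjusted p = 0.0241). It was -0.63 and called with limma-voom and sample weights (adjusted p = 0.00621), and -0.90 and called with the leukocyte score as a covariate (edgeR, adjusted p = 0.0230).

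**Figure D2:**
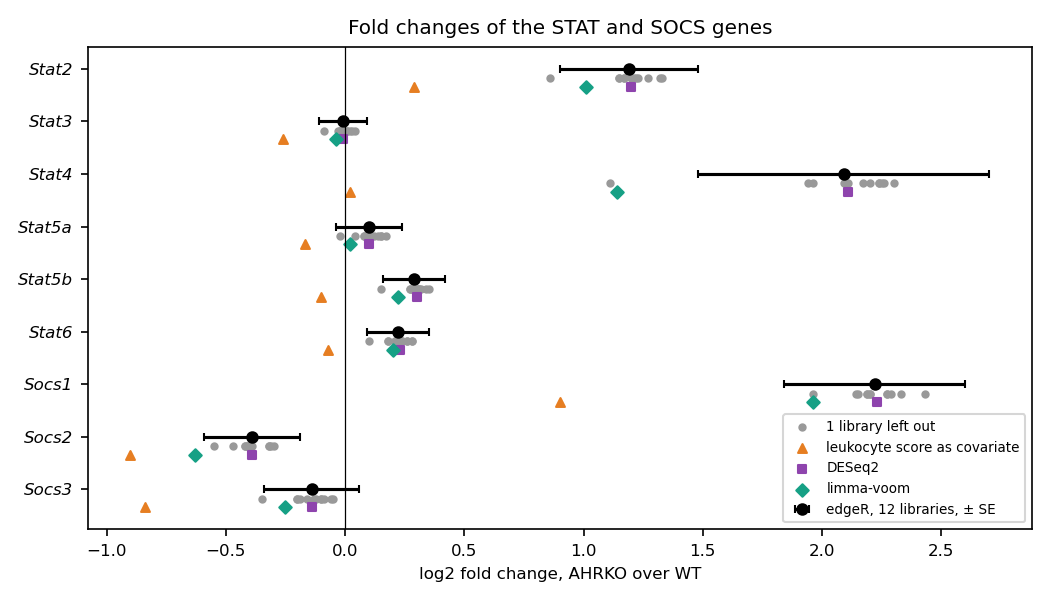
Log2 fold change, AHRKO over WT (horizontal axis), of the 9 genes. Black points with bars are edgeR values ± SE over 12 libraries, grey points leave out 1 library each, and coloured symbols are limma-voom, DESeq2 and edgeR with the leukocyte score as a covariate. Socs1, Stat4 and Stat2 lie at 2.22, 2.09 and 1.19, and with the covariate at 0.90, 0.02 and 0.29.

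On the scale of CPM per kilobase of exon, the order of levels in AHRKO was Socs3 at 48.9 ± 17.6, Stat6 at 29.2 ± 6.22, Stat3 at 27.7 ± 4.05, Socs1 at 18.8 ± 10.2, Stat2 at 14.6 ± 8.06, Stat5b at 11.8 ± 2.90, Socs2 at 5.04 ± 1.77, Stat5a at 4.23 ± 0.949 and Stat4 at 0.744 ± 0.902 (SD, n = 6). In WT it was Socs3 at 54.0 ± 9.85, Stat3 at 27.9 ± 1.82, Stat6 at 25.1 ± 3.02, Stat5b at 9.64 ± 0.430, Socs2 at 6.63 ± 0.828, Stat2 at 6.39 ± 1.06, Socs1 at 4.04 ± 0.865, Stat5a at 3.95 ± 0.526 and Stat4 at 0.173 ± 0.0829 (SD, n = 6). Neighbours whose means differed by less than the larger SD of the pair were Stat6 and Stat3, Stat3 and Socs1, Socs1 and Stat2, Stat2 and Stat5b, and Socs2 and Stat5a in AHRKO, and Stat3 and Stat6, Socs2 and Stat2, and Socs1 and Stat5a in WT. Socs1 had rank 4 in AHRKO and rank 7 in WT by exon length, and rank 6 in AHRKO and rank 8 in WT by the longest coding transcript. The order depends on the length used: with the longest coding transcript, of 2222 bases, in place of 9531 bases of exon, Socs2 was at 21.6 ± 7.59 in AHRKO and 28.4 ± 3.55 in WT, rank 4 in both groups.

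The genes most like the 3 that rose were sought by the mean absolute difference of log2 CPM, each gene centred on its own mean, over the 12 libraries. Nearest to Stat2 were Parp12, Ifih1, an RNA sensor, and Ifi35, at 0.11, 0.12 and 0.15, against a median of 0.65 over all tested genes. Nearest to Socs1 were Hopx, a homeodomain protein gene, Tap2, a peptide transporter of antigen presentation, and Irf8, an interferon regulatory factor, at 0.26, 0.26 and 0.27, against a median of 1.17. Nearest to Stat4 were Acss1, an acetyl-CoA synthetase, H2-Ob, an MHC class II chain of B cells, and Stk32c, at 0.28, 0.32 and 0.33, against a median of 0.84. The libraries share depth and cell content, and the likeness says nothing beyond the pattern of levels.

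Interferon genes around STAT2 rose together, against 15.9% of all tested genes called higher. Of 19 type I interferon genes driven by the STAT2 complex, 19 were called higher in AHRKO, and 19 without AHRKO replicate 1, with a median log2 fold change of 1.84. Their summed level was 318 to 1110 CPM in AHRKO (at most 710.2 CPM without replicate 1) and 127 to 274 CPM in WT. The antiviral GTPase gene Mx1 rose to 15.1 ± 4.90 CPM in AHRKO, against 2.32 ± 0.724 CPM in WT (SD, n = 6 each; edgeR's quasi-likelihood test, adjusted p = 0.000102). Oas3, a synthase that senses double-stranded RNA, was at a log2 fold change of 2.79, Cmpk2, a nucleotide kinase, at 2.08 and Bst2, which tethers viruses to the cell, at 2.08. Of 14 genes of the interferon gamma response 13 were called higher, with a median of 2.86 and a summed level of 944 to 5400 CPM in AHRKO (at most 3540 CPM without replicate 1) and 388 to 1310 CPM in WT. Among them were Psmb8 and Psmb9, subunits of the immunoproteasome, at 2.95 and 3.04, Irf8 at 2.10, and Ciita at 3.59 (4.23 without WT replicate 4). With the leukocyte score as a covariate, 4 of the 19 and 3 of the 14 were called higher.

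Interferon receptor genes rose in part. Ifnar2, a chain of the type I receptor, was at a log2 fold change of 0.77 ± 0.19, Ifngr2, a chain of the interferon gamma receptor, at 0.56 ± 0.09, and Il10rb, shared by the IL-10 and type III interferon receptors, at 0.68 ± 0.16 (SE). Their adjusted p were 0.00948, 0.00117 and 0.00755 (edgeR's quasi-likelihood test). For each, all 6 AHRKO libraries were above all WT libraries, as they were for 6.03% of all tested genes. All 3 lie on chromosome 16, as Socs1 does, where 37.9% of tested genes were called higher, against 15.9% of all tested genes. The other 3 tested genes of this list were not called. Among them, named after its value was seen, was Ifnar1, also on chromosome 16 (log2 fold change 0.16, edgeR adjusted p = 0.29). Ifng and Ifnb1, which encode interferons, had too few counts to be tested. Ifng was at 1.46 ± 1.63 CPM in AHRKO and 0.14 ± 0.285 CPM in WT (SD, n = 6 each), and Ifnb1 averaged 0.0323 CPM in AHRKO and 0.0178 CPM in WT.

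In the IL-6 family around STAT3 and Socs3, every cytokine gene that was called was lower in AHRKO. Of 12 tested gp130 cytokines and receptors 4 were called lower and 1 higher, against 13.6% and 15.9% of all tested genes. The 4 were all cytokines: Il11 at 2.04 ± 0.682 CPM in AHRKO and 17.0 ± 8.63 CPM in WT, Lif at 19.9 ± 3.55 and 41.6 ± 17.6 CPM, Clcf1 at 92.8 ± 21.5 and 158 ± 26.5 CPM, and Ctf1 at 1.81 ± 0.607 and 3.77 ± 0.768 CPM (AHRKO, then WT; SD, n = 6 each). Their log2 fold changes were -3.06, -1.06, -0.77 and -1.05, with adjusted p from 0.000188 to 0.00772 (edgeR's quasi-likelihood test), and all 6 AHRKO libraries were below the WT median for each. The gene that rose, named after its value was seen, was Il27ra, a receptor of the same family found on lymphocytes. It was not called on leaving out WT replicate 1, 4 or 5. The cytokine gene Osm, also named after its values were seen, was at 11.4 ± 7.62 CPM in AHRKO and 4.93 ± 3.11 CPM in WT (SD, n = 6 each), with a log2 fold change of 1.21 ± 0.47 (SE) that was not called (edgeR, adjusted p = 0.0696). Osm was called higher on leaving out WT replicate 3 (1.56, edgeR adjusted p = 0.0293) or AHRKO replicate 5 (1.39, edgeR adjusted p = 0.0351). Il27, a cytokine gene with too few counts to be tested, was at 1.13 ± 1.39 CPM in AHRKO and 0.194 ± 0.147 CPM in WT (SD, n = 6 each). The number called lower was 4 without AHRKO replicate 1 and also with the leukocyte score as a covariate. Of 19 tested STAT3 target genes 2 rose and 2 fell, near or below the background share. Cebpd, a transcription factor of the acute phase response, was at 0.69 and Bcl3 at 0.25, while Junb, a subunit of AP-1, was at -0.55 and Hif1a, the hypoxia factor, at -0.45. The call of Bcl3 ended on leaving out WT replicate 4, WT replicate 6, AHRKO replicate 2 or AHRKO replicate 6 (log2 fold change 0.21 to 0.24, edgeR adjusted p 0.0543 to 0.0673).

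Several inputs of STAT4 and STAT5 were called higher in AHRKO, as were 15.9% of all tested genes. Il12rb1, a chain of the IL-12 receptor, was at 11.8 ± 9.02 CPM in AHRKO and 2.73 ± 1.26 CPM in WT (SD, n = 6 each; edgeR's quasi-likelihood test, adjusted p = 0.0116). It was 1 of 2 tested genes in its list of 6. The other, Il12rb2, was not called, and Il12a, Il12b, Il23a and Il23r had too few counts to be tested. Il12b, which encodes a subunit shared by IL-12 and IL-23 and is named after its values were seen, was at 2.16 ± 2.96 CPM in AHRKO and 0.117 ± 0.0906 CPM in WT (SD, n = 6 each). It passed the count filter, and was called higher, only in the 7 fits that left out 1 WT library or AHRKO replicate 5. WT libraries were at most 0.233 CPM and AHRKO libraries at least 0.386 CPM, so Il12b passed through AHRKO alone. Those calls are therefore not read as a result. Of 8 STAT4 target genes 5 were called higher, 4 without AHRKO replicate 1. Il18rap, a chain of the IL-18 receptor, had a log2 fold change of 1.38 ± 0.15 (SE), Il18r1, its partner, 2.50, and Havcr2, the checkpoint receptor TIM-3, 1.58. Tbx21, the master regulator of type 1 helper cells, was at 3.79, at 2.86 without AHRKO replicate 1 and at 4.75 without WT replicate 4. In WT it had a median of 0.141 CPM and at most 0.87 CPM, against a median of 2.22 CPM in AHRKO. Tbx21 thus passed the count filter mainly through AHRKO, and its call is not read as a result. Of 14 tested cytokine and receptor genes that act through STAT5, 10 were called higher and 1, Epor, named after its value was seen, lower. Among the 10 was Csf2, also named after its values were seen. It had a median of 0.25 CPM in WT and at least 0.687 CPM in AHRKO libraries. Csf2 thus passed the count filter mainly through AHRKO, and its call is not read as a result. The cytokine gene Il7 was at 2.03, Il2rg, the common gamma chain, at 1.88, Csf2ra, a chain of the GM-CSF receptor, at 1.48 and Il3ra at 0.51. Epor was not called without WT replicate 2 or 3 or AHRKO replicate 6. With the leukocyte score as a covariate, 2 of the 14 were called higher.

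**Figure D3:**
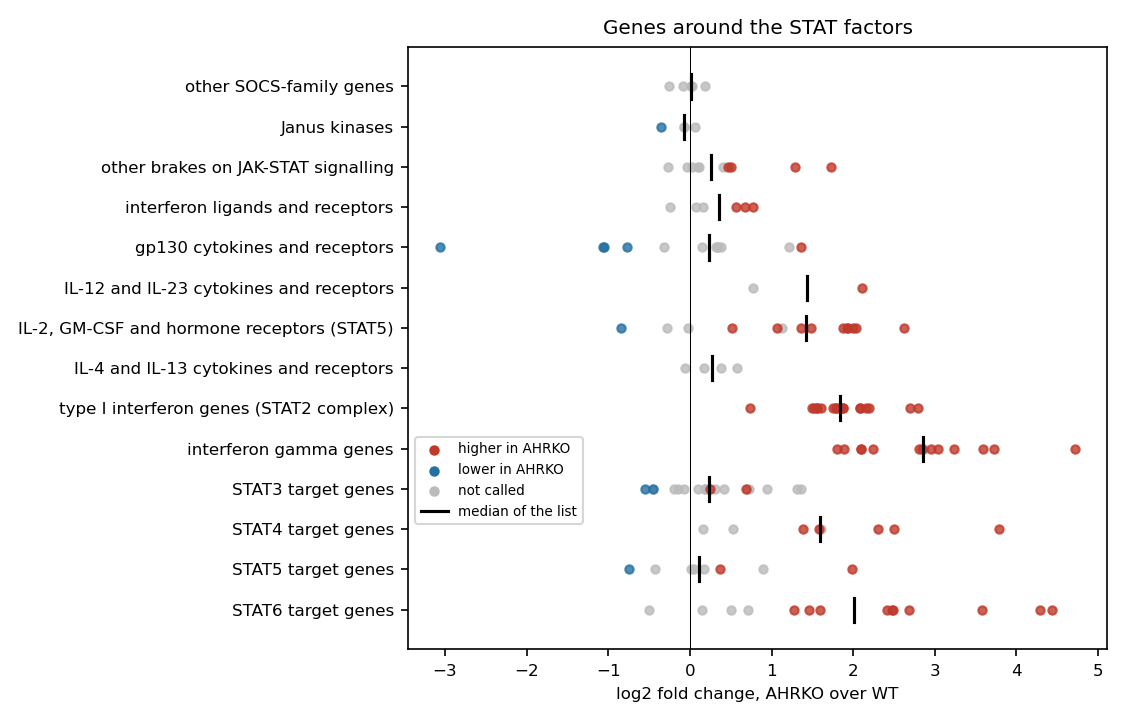
Log2 fold change, AHRKO over WT (horizontal axis), of every tested gene in 14 lists around the STAT factors. Red points were called higher in AHRKO, blue lower and grey were not called, and black bars are list medians. The 2 interferon lists have medians of 1.84 and 2.86, while the STAT3 and STAT5 target lists have medians of 0.24 and 0.11.

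Of 8 STAT5 target genes 2 rose and 1 fell, with 2 called lower without AHRKO replicate 1 or 5. Among all tested genes 15.9% were called higher and 13.6% lower, and 8 genes are too few to set against these shares. Foxp3, the regulator of regulatory T cells, was at 1.98 and, without AHRKO replicate 1, at 1.26, Bcl6, a transcriptional repressor, at 0.37, and Ccnd2, a D-type cyclin, at -0.74 ± 0.13 (SE; edgeR's quasi-likelihood test, adjusted p = 0.00173). The repressor gene Bcl6 was not called without WT replicate 4 (0.35, edgeR adjusted p = 0.0592). Of 14 STAT6 target genes 10 were called higher, 10 also without AHRKO replicate 1 and none with the leukocyte score as a covariate, with a median of 2.01. Ccl24, a chemokine for eosinophils, was at 63.2 ± 53.2 CPM in AHRKO and 5.28 ± 3.21 CPM in WT, and Mgl2, a lectin of macrophages and dendritic cells, at 70.1 ± 54.1 CPM in AHRKO and 10.9 ± 4.91 CPM in WT (SD, n = 6 each). Pdcd1lg2, a ligand of PD-1, was at a log2 fold change of 2.42 and Gata3, the regulator of type 2 helper cells, at 1.28. Several of these genes are themselves macrophage genes. Of 12 macrophage and monocyte markers 10 were called higher in AHRKO, with a summed level of 1250 to 7540 CPM in AHRKO (at most 3570 CPM without replicate 1) and 958 to 1860 CPM in WT. Of 4 tested IL-4 and IL-13 cytokine and receptor genes none was called by edgeR or DESeq2, with Il13ra1 at 0.38 and Il13ra2 at 0.58 ± 0.65 (SE). Il13ra2 ran from -0.14 without AHRKO replicate 4 to 0.85 without WT replicate 2. Il13ra1 had an unadjusted p of 0.0486 and was called without WT replicate 3 (0.50, edgeR adjusted p = 0.0440) and with limma-voom (adjusted p = 0.0290).

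Of 10 other inhibitors of the pathway 4 were called higher (2 without WT replicate 6) and none lower (1 without AHRKO replicate 1). Among all tested genes the shares were 15.9% and 13.6%. Usp18, which shuts the type I interferon receptor and is itself an interferon gene, was at 1.73 ± 0.38, and Ptpn6, which encodes the leukocyte phosphatase SHP-1, at 1.29 ± 0.26 (SE). Ptpn1 and Ptpn2, phosphatases that act on JAKs and STATs, were at 0.47 and 0.50. Ptpn1 was not called without WT replicate 1, 4 or 6 (edgeR, adjusted p 0.0565 to 0.0615), nor Ptpn2 without WT replicate 5 or 6 (edgeR, adjusted p 0.0527 and 0.0511). None of the other 5 SOCS-family genes was called by edgeR, though Socs5 at 0.19 and Socs6 at -0.26 had an unadjusted p under 0.05, while limma-voom called Socs5 higher (adjusted p = 0.0450) and Socs6 lower (adjusted p = 0.0344). Without AHRKO replicate 1, Socs6 was at -0.18 and called lower (edgeR, adjusted p = 0.0494). Of the 4 Janus kinases Jak3 alone was called, at 149 ± 20.6 CPM in AHRKO and 192 ± 27.6 CPM in WT (SD, n = 6 each; log2 fold change -0.36 ± 0.12 SE; edgeR's quasi-likelihood test, adjusted p = 0.0322). That call ended on leaving out WT replicate 1, WT replicate 4 or AHRKO replicate 2, 3 or 4 (log2 fold change -0.35 to -0.29, edgeR adjusted p 0.0574 to 0.0708). Without AHRKO replicate 1, Tyk2, named after its value was seen, was also called lower (-0.26, edgeR adjusted p = 0.0428).

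Set against the leukocyte score of each library, Stat2, Stat4 and Socs1 were highest in AHRKO replicate 1, where the score was highest. AHRKO replicate 4, with the second highest score of 6.08, had Stat2 at 44.6 CPM, below WT replicate 4. AHRKO replicates 2 and 6, with scores of 5.89 and 5.77, had the lowest Socs2 of all 12 libraries. The fit with the score as a covariate rests on groups whose scores overlap only through AHRKO replicate 5.

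**Figure D4:**
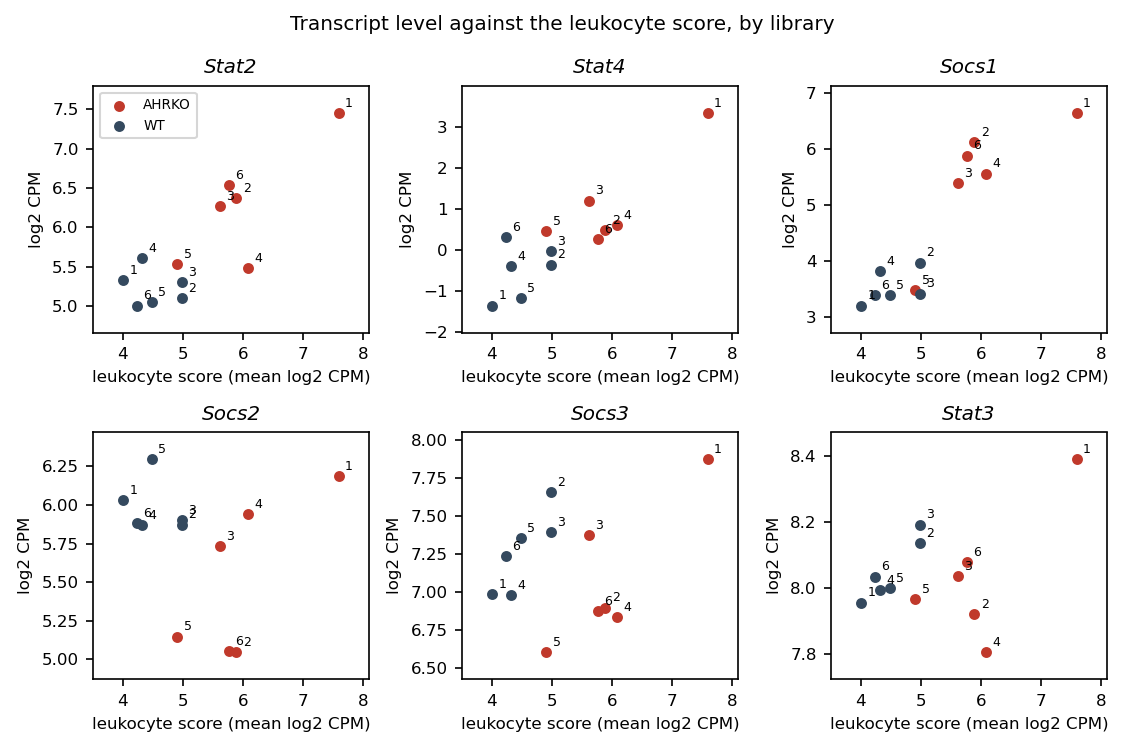
Log2 CPM of 6 of the genes (vertical axes) against the leukocyte score, the mean log2 CPM of 14 markers (horizontal axes), in 6 AHRKO (red) and 6 WT (dark) libraries numbered by replicate. AHRKO replicate 1, at a score of 7.59, is the highest library for Stat2, Stat4, Socs1, Socs3 and Stat3. AHRKO replicate 5, at 4.91, lies among WT for Socs1.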

How the data were processed

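Poly-T-selected mRNA of CR705 tumours was sequenced. The submitters' processing notes name mm10, HISAT2, SAMtools, HTSeq and DESeq2; the sources used here do not give versions, annotation, strandedness or settings. Whole-number, unnormalized counts for each gene and library were deposited. Symbols, mm10 positions and exon lengths came from GENCODE M21 (42548 of 43432 identifiers matched), and promoters from RefSeq.

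Genes were kept by filterByExpr, scaled by TMM and tested with edgeR 4.0.16 (R 4.3.3) by the quasi-likelihood test, which is two-sided. P-values were adjusted by Benjamini-Hochberg across the 15449 genes kept, and 0.05 was the threshold. Log2 CPM used a prior count of 2. Standard errors are the log2 fold change divided by the square root of F. Alternatives were limma-voom 3.58.1, DESeq2 1.42.0, other scalings and filters, a replicate block, a leukocyte covariate and leaving out each library. The pipeline was tested on simulated data. The lowest chi-square per degree of freedom between libraries of a group was 13.6, so none was a duplicate. Reads carry no molecular identifiers.

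The members and gene lists were chosen with earlier results of these data known. Named genes were the members, Ahr, up to 4 called members of each list by smallest p (2 where none was called), and the 3 genes most like each called member with an absolute log2 fold change of at least 1.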

Additional observations from a re-analysis of the deposited data

Results flagged for a closer look

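Values that stood far from the rest of their group of 6 were sought in 24 groups (each member, Ahr, the leukocyte score and the Stat5a to Stat5b ratio, in AHRKO and in WT), where chance flags about 1 in 20. Of these, 3 did. Stat2 in AHRKO replicate 1 was at 175 CPM, against 92.7 CPM in the next highest AHRKO library. Stat4 in the same library was at 9.97 CPM, against 2.20 CPM in the next. Socs2 in WT replicate 5 was at 78.4 CPM, against 65.2 CPM in the next WT library.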

How the results depend on the processing

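Stat2 and Socs1 stayed called with every alternative but the leukocyte covariate. That covariate gave Stat2 0.29, Stat4 0.02 and Socs1 0.90, none called, so that 0 members were higher, and Socs2 -0.90 and Socs3 -0.84, both called, so that 2 were lower. It also ended the call of 24 of 40 called genes named from the lists, and Ptpn1 changed sign there, at -0.06. Replicate numbers did not pair the libraries: the correlation of same-numbered deviations ran from -0.468 to 0.029, and 0 of 6 AHRKO libraries correlated best with their own number. With the replicate block 1114 genes were higher, against 2451 without it, and 1240 lower, against 2106. Under that block Stat4 was at 1.57 and not called (adjusted p = 0.121), 10 of the 40 list genes were not called, and the STAT5 input list had 4 higher genes in place of 10 and the STAT6 target list 5 in place of 10. With limma-voom, Stat5b was called at 0.22 and Socs2 at -0.63, 1 member lower. Leaving out 1 library at a time, the number of members called lower ran from 0 to 1, Stat4 from 1.11 to 2.30, Socs2 from -0.55 to -0.30 and the Stat5a to Stat5b log2 ratio from -0.24 to -0.14. The block gave -0.18 for that ratio and 1.47 for the leukocyte score. Stat4 had too few counts for the stricter filter. The cause of these changes was not tested. The fits that leave out a library also hold fewer samples. With 7 to 24 counts per WT library, Stat4 is the member whose value depth limits most.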
